A study of Homo sapiens with 12 samples.

Results

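The mitochondrial proteostasis and mitokine genes comprised 10 genes, HSPD1, HSPE1, HSPA9, DNAJA3, LONP1, CLPP, CLPX, YME1L1, GDF15 and FGF21, which were matched by gene name among the 34227 genes listed in the SCC15 or the SCC25 table. All 10 were listed in both tables. RNA from SCC15 and SCC25, HNSCC cell lines labelled as wild-type oral squamous cells, had been sequenced after 24 h with squamocin at 10 µg/mL or with DMSO as the control. Squamocin is an annonaceous acetogenin, and the labels call the treated samples ACGs. Each of the 4 groups held 3 libraries, and each library held between 16665563 and 22748845 reads on genes. The labels do not say whether the libraries of a group came from separate cultures, so the p-values measure the spread between these libraries, which may be technical.

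Most mitochondrial proteins are made in the cytosol, imported unfolded and then folded inside the organelle. HSPA9 (mortalin) pulls them in and folds them with its co-chaperone DNAJA3, and the chaperonin of HSPD1 (HSP60) and its lid HSPE1 (HSP10) folds them in the matrix. Misfolded proteins are degraded in the matrix by LONP1 and by the peptidase CLPP with its unfoldase CLPX, and at the inner membrane by YME1L1. Acetogenins inhibit Complex I of the respiratory chain, and cells with impaired mitochondria are known to transcribe the secreted hormones GDF15 and FGF21, called mitokines, through ATF4 and related factors.

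Values are given as normalized counts, the reads of a gene divided by the size factor of the library. The treatments were compared by limma on log2(normalized count + 1), with a separate fit for SCC15 and for SCC25. A call required a Benjamini-Hochberg adjusted p below 0.05 over 15902 genes in SCC15 or 16539 in SCC25. After the authors' scaling the SCC15 libraries had a median total of 15511759 with DMSO and of 20826159 with squamocin. For the SCC25 libraries these totals were 18272805 and 21182014. The median log2 change of all genes was 0.012 in SCC15 and -0.015 in SCC25, so the changes below lie close to changes relative to the median gene. With the libraries set to equal totals instead, that median was -0.48 in SCC15 and -0.22 in SCC25. The split of calls moved with it, from 4921 higher and 4773 lower to 2357 and 8033 in SCC15, and from 6335 and 6367 to 5032 and 7839 in SCC25. Values with equal totals are therefore given beside many of the results below.

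The third squamocin library of SCC15 stood apart from the other libraries of its group, with a chi-square per degree of freedom of 64.1 and 56.8 against them. The other pairs of replicates gave 1.67 to 9.95. The highest of these, 6.73 and 9.95, came from the third squamocin library of SCC25, where the other pair of its group gave 2.38. The epithelial genes DSP and CDH1 were expressed in both cell lines, but the squamous markers KRT5 and TP63 were nearly absent from SCC15, at 2.49 to 13.1 and 6.22 to 22.7 normalized counts. In SCC25 they reached 4362 to 5684 and 4466 to 7030. The keratins KRT14 and KRT6A were present in both cell lines. KRT14 was at 752 to 1912 in SCC15 and 345 to 857 in SCC25, and KRT6A at 112 to 139 and 83.7 to 231. These keratin ranges cover both treatments and overlap between the cell lines, whose tables were scaled separately. The summed level of 8 markers of leukocytes, endothelium and fibroblasts in SCC15 was 457 to 491 with DMSO and 287 to 312 with squamocin. In SCC25, where PTPRC was not listed, the sum was 680 to 766 and 923 to 1092, most of it COL1A1 at 554 to 1040. Among the leukocyte markers, PTPRC was at most 3.95 in SCC15 and CD68 at most 7.20 in both cell lines, while CD3E was at 3.42 to 23.9 in SCC15 and 13.5 to 27.0 in SCC25. The part of these shifts in the results below was not tested, and in bulk RNA fewer cells of a type and less RNA per cell cannot be told apart.

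Of the 9 genes that passed the filter of a mean of 10 normalized counts, 7 were higher with squamocin in SCC15 and 1 was lower, where 30.9% of all genes were higher and 30% lower. In SCC25, 5 were higher and 2 lower, against 38.3% and 38.5% of all genes. Counting either direction, 61% of all genes were called in SCC15 and 76.8% in SCC25. The libraries of the treatments did not overlap for 9 of the 9 genes in SCC15, against 70.6% of all genes, and for 8 in SCC25, against 79% of all genes. Their median log2 change was 0.68 in SCC15, from -0.58 for CLPX to 4.27 for GDF15, and 0.28 in SCC25, from -0.36 for CLPP to 2.09 for GDF15. HSPD1, HSPE1, HSPA9, LONP1 and GDF15 were higher in both cell lines, as were 22.1% of the 14454 genes tested in both. With equal totals, SCC15 had 4 higher and 1 lower and SCC25 had 4 of each. All genes called then numbered 2357 higher and 8033 lower in SCC15, and 5032 and 7839 in SCC25. Without the third squamocin library of SCC15, 8 genes were higher and 1 lower in that cell line. In the same fit, 6103 of all genes were higher and 5920 lower.

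**Figure D1:**
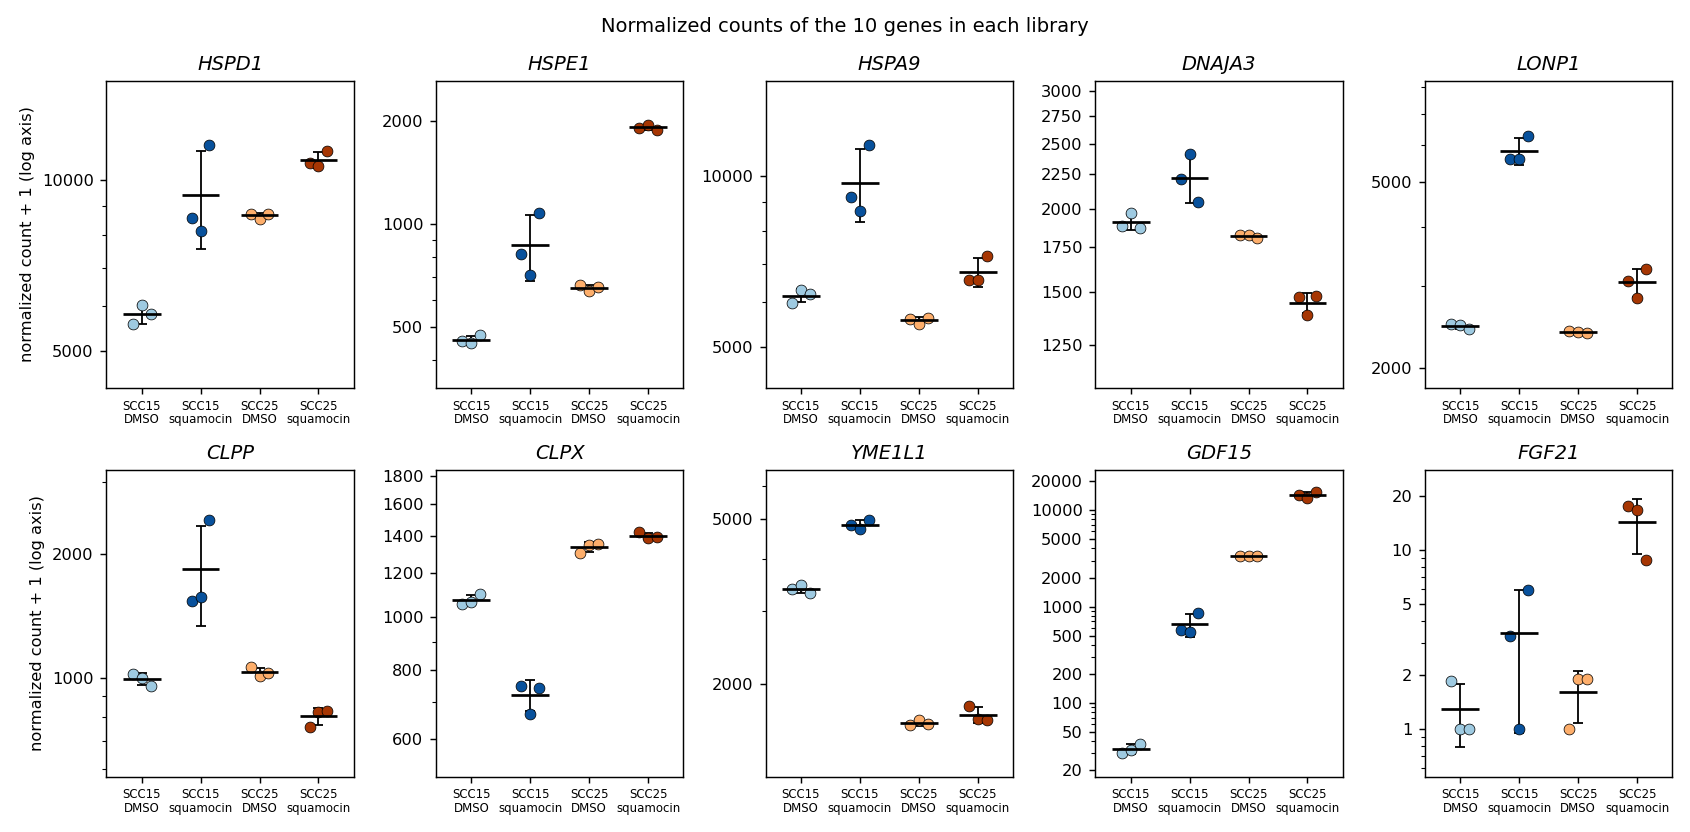
Normalized count plus 1 (log axis) of each of the 10 genes in the 12 libraries, with the mean (line) and SD (bars) of the 3 libraries of each group. The SCC15 and SCC25 tables were scaled separately, so levels compare only within a cell line. GDF15 rose from 29.0 to 36.7 up to 543 to 862 in SCC15 and from 3307 to 3378 up to 13182 to 15321 in SCC25, while CLPP moved up in SCC15 and down in SCC25.

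The chaperonin genes HSPD1 and HSPE1 lie on opposite strands of chromosome 2 (GRCh38). HSPD1 spans 197486581 to 197516737 on the minus strand, and HSPE1, at 197499994 to 197503457 on the plus strand, lies within that span. The RefSeq start sites used here are head to head with 104 bases between them, and this interval is known as a bidirectional promoter. The 30 bases around its E-box, a sequence bound by basic helix-loop-helix factors such as MYC, are shown for this shared position, in the direction of HSPE1 at chr2:197500345-197500374, with the E-box CACGTG in capitals. It lies 22 to 17 bases before the start of HSPE1 and 88 to 83 bases before that of HSPD1. A further HSPD1 start in RefSeq has a heat shock element, the site of HSF1, 245 to 228 bases before it. This element lies downstream of the HSPD1 start named above and in annotated exons. It is shown on the minus strand at chr2:197500061-197500090 with 2 overlapping matches of the letters in capitals.
HSPE1 and HSPD1, E-box: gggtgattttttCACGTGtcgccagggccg
HSPD1, heat shock element: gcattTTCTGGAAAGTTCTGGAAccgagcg

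HSPD1 stood at 5590.35, 6032 and 5810.45 in the 3 DMSO libraries of SCC15 and at 8563, 8147 and 11524 in the squamocin libraries. All squamocin libraries lay above all DMSO libraries, and the third was the highest. The log2 change was 0.68 (95% interval 0.35 to 1.01, SE 0.14, limma adjusted p = 0.00467). In SCC25, HSPD1 moved from 8737, 8559.7 and 8709 to 10736, 10575 and 11247, again without overlap. The change there was 0.32 (SE 0.038, limma adjusted p = 5.25e-06). Equal totals gave a change of 0.18 in SCC15 (adjusted p = 0.121), where the call was lost, and 0.12 in SCC25 (adjusted p = 0.0181).

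HSPE1 stood at 453, 448 and 471 with DMSO and 818, 709 and 1079 with squamocin in SCC15. In SCC25 it rose from 662, 636 and 654 to 1914, 1946 and 1885. The groups were far apart in both cell lines, and the SCC25 libraries of each group were tightly spaced. The log2 change was 0.90 in SCC15 (SE 0.15, limma adjusted p = 0.00178) and 1.56 in SCC25 (SE 0.049, limma adjusted p = 3.17e-11), that is 1.87-fold and 2.94-fold. With equal totals the changes were 0.40 (adjusted p = 0.0154) and 1.35. HSPE1 was the only one of the 9 tested genes with a rise that was larger in SCC25 than in SCC15 by the test of the difference, which was 0.65 (95% interval 0.30 to 1.01, limma adjusted p = 0.00494).

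The 2 chaperonin genes thus did not rise in proportion. Within a library, where the scaling cancels, the log2 ratio of HSPD1 to HSPE1 was 3.62 to 3.75 with DMSO and 3.39 to 3.52 with squamocin in SCC15. In SCC25 it was 3.72 to 3.75 with DMSO and 2.44 to 2.58 with squamocin. The ratio fell by 0.22 in SCC15 and by 1.23 in SCC25, and the libraries of the treatments did not overlap in either cell line. With labels permuted within both cell lines, the exact two-sided permutation test gave p = 0.005 (adjusted p = 0.00667 over the 4 pairs of partner genes compared), the smallest p that the 400 splits allow. Within 1 cell line, this exact test of 3 libraries against 3 cannot go below p = 0.1.

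Reads of HSPE1 are harder to assign than those of HSPD1. In GENCODE 44, 192 of the 557 exonic bases of the canonical HSPE1 transcript, or 34.5%, are also exonic in another gene, the read-through gene HSPE1-MOB4 among them. HSPE1-MOB4 had 3 reads in total in SCC25 and was not listed in SCC15. Processed copies of both genes were listed with low counts, with summed means of 90.5 and 94.4 over the HSPD1 pseudogenes and 24.6 and 27.2 over the HSPE1 pseudogenes in SCC15 and SCC25. How the authors' counting treated shared reads is not stated in the sources used here, so the level of HSPE1 is uncertain.

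HSPA9 (chromosome 5, 138553756 to 138575724, minus strand) rose in both cell lines. Its values in SCC15 were 5973, 6293 and 6189 with DMSO and 9166, 8669.9 and 11323 with squamocin. In SCC25 they were 5597, 5492 and 5617 with DMSO and 6553, 6553 and 7236 with squamocin. There was no overlap in either cell line, and the third squamocin library was the highest in each. The log2 change was 0.65 in SCC15 (SE 0.12, limma adjusted p = 0.00257) and 0.28 in SCC25 (SE 0.045, limma adjusted p = 8.74e-05). Both calls were lost with equal totals, at 0.15 (adjusted p = 0.123) and 0.074 (adjusted p = 0.170). The E-box of its RefSeq promoter window lies 19 to 14 bases before the start and is shown on the minus strand, at chr5:138575403-138575432.
HSPA9, E-box: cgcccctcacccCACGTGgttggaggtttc

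HSPA5 (BiP) is the HSP70 of the endoplasmic reticulum and served as the counterpart of HSPA9. It rose from a mean of 16693 to 218126 in SCC15, a log2 change of 3.70 (SE 0.15, limma adjusted p = 7.93e-06), and from 20971 to 154883 in SCC25, a change of 2.88 (SE 0.044, limma adjusted p = 5.55e-14). The log2 ratio of HSPA9 to HSPA5 within a library lay between -1.48 and -1.42 with DMSO and between -4.51 and -4.48 with squamocin in SCC15. In SCC25 it lay between -1.94 and -1.89 and between -4.54 and -4.49. The ratio fell by 3.05 and by 2.60 (exact permutation test over both cell lines, p = 0.005, adjusted p = 0.00667). The mitochondrial HSP70 therefore rose far less than its counterpart in the endoplasmic reticulum in both cell lines.

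DNAJA3 (chromosome 16, 4425805 to 4456775, plus strand), the J-domain partner of HSPA9, was called higher in neither cell line. In SCC15 it stood at 1883, 1971 and 1872 with DMSO and 2213, 2411 and 2043 with squamocin. The groups did not overlap, yet the log2 change of 0.22 missed the threshold (95% interval 0.0065 to 0.43, limma adjusted p = 0.0696). It passed without the third squamocin library, at 0.28 (limma adjusted p = 5.45e-05), and turned to -0.28 (adjusted p = 0.0931) with equal totals. In SCC25 it fell from 1826, 1827 and 1805 to 1474, 1387 and 1478, a change of -0.33 (SE 0.047, limma adjusted p = 3.04e-05) that was -0.54 with equal totals. The log2 ratio of HSPA9 to DNAJA3 rose by 0.43 in SCC15 and by 0.61 in SCC25 (exact permutation test, p = 0.005, adjusted p = 0.00667), with no overlap in either cell line.

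**Figure D2:**
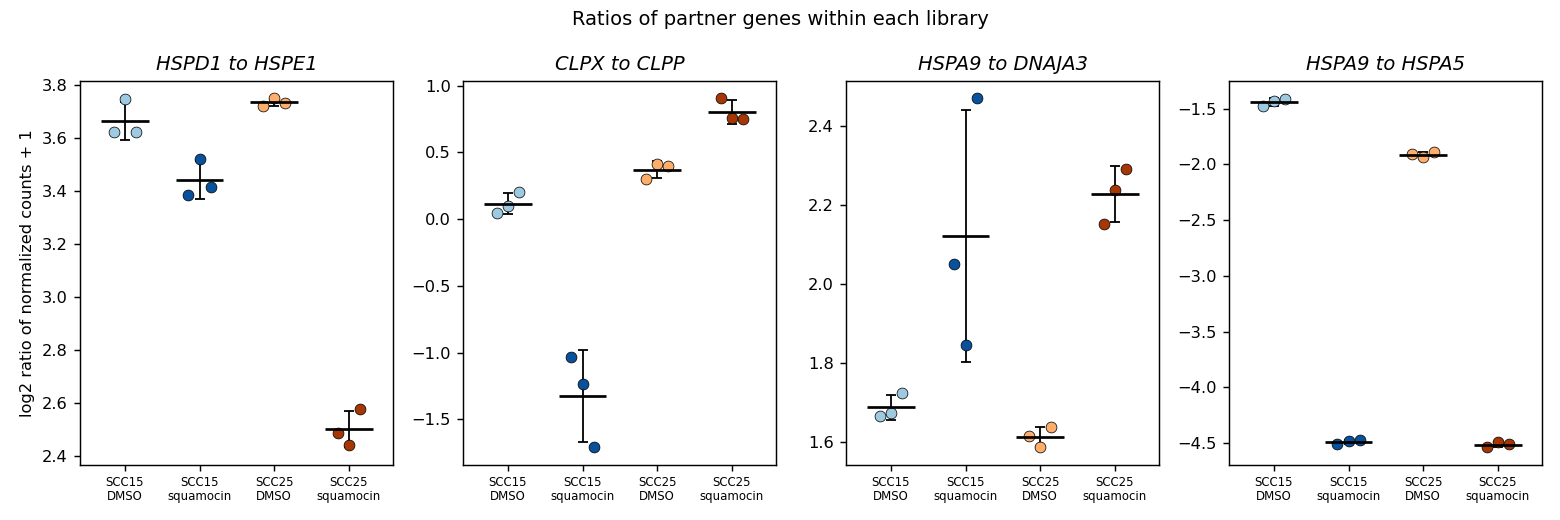
Log2 ratio of the normalized counts plus 1 of 4 pairs of genes within each library, with the mean (line) and SD (bars) of 3 libraries per group. HSPD1 to HSPE1 fell by 0.22 in SCC15 and by 1.23 in SCC25, HSPA9 to HSPA5 fell in both, HSPA9 to DNAJA3 rose in both, and CLPX to CLPP fell in SCC15 and rose in SCC25.

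LONP1 (chromosome 19, 5691834 to 5720572, minus strand), the ATP-dependent matrix protease, had the largest log2 change of the protease genes in SCC15. It went from 2487, 2466 and 2421 with DMSO to 5613, 5604 and 6275 with squamocin, a 2.37-fold change with wide separation of the groups. The log2 change was 1.24 (95% interval 1.05 to 1.44, SE 0.085, limma adjusted p = 4.01e-05). In SCC25 it went from 2401, 2388 and 2375 to 3063, 2824 and 3253, a change of 0.35 (SE 0.052, limma adjusted p = 4.83e-05). Equal totals gave changes of 0.75 (adjusted p = 1.48e-04) and 0.14 (adjusted p = 0.0315). The rise was larger in SCC15 by 0.89 on the log2 scale, since SCC25 minus SCC15 was -0.89 (95% interval -1.11 to -0.68, limma adjusted p = 1.11e-05).

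One of the RefSeq windows of LONP1 holds 2 E-boxes, 212 to 207 and 49 to 44 bases before the start, shown on the minus strand at chr19:5720341-5720370 and chr19:5720178-5720207.
LONP1, upstream E-box: ctcacagccttcCACGTGaccggaaaaggc
LONP1, downstream E-box: cgcgccgggcgtCACGTGcgtttcgcggcg

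CLPP and CLPX form 1 protease, with CLPX feeding unfolded proteins into the CLPP barrel, and their RNAs moved apart. CLPP (chromosome 19, 6361452 to 6368910, plus strand) stood at 1022, 995 and 954 with DMSO and 1535, 1571 and 2429 with squamocin in SCC15, a log2 change of 0.86 (SE 0.17, limma adjusted p = 0.0041). The third squamocin library was far above the other two, and without it the change was 0.65 (limma adjusted p = 1.26e-09). In SCC25 CLPP fell from 1059.8, 1011 and 1025 to 759, 822 and 829, a change of -0.36 (SE 0.057, limma adjusted p = 7.87e-05). CLPP was the only one of the 9 tested genes called higher in SCC15 and lower in SCC25, a pattern of 5.44% of the genes compared. With equal totals the changes were 0.37 (adjusted p = 0.0317) and -0.57, and both calls held.

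CLPX (chromosome 15, 65148219 to 65185342, minus strand) was the only one of the 9 that fell in SCC15. It went from 1055, 1063 and 1097 with DMSO to 749, 666 and 743 with squamocin, a log2 change of -0.58 (SE 0.086, limma adjusted p = 0.00102) that was -1.07 with equal totals. In SCC25 it was 1302, 1347 and 1352 with DMSO and 1419.7, 1386 and 1392 with squamocin. The groups did not overlap there, but the change of 0.069 did not pass (95% interval -0.032 to 0.17, limma adjusted p = 0.193), and with equal totals it was -0.14 (adjusted p = 0.0162) and CLPX was called lower. The log2 ratio of CLPX to CLPP, which no scaling touches, was 0.046 to 0.20 with DMSO and -1.71 to -1.03 with squamocin in SCC15. In SCC25 it was 0.30 to 0.41 with DMSO and 0.75 to 0.90 with squamocin. The ratio thus fell by 1.44 in SCC15 and rose by 0.43 in SCC25, without overlap in either. The exact permutation test of the mean over both cell lines, where opposite changes cancel, gave p = 0.12.

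YME1L1 (chromosome 10, 27110112 to 27155266, minus strand), the inner membrane protease that faces the intermembrane space, stood at 3386, 3469 and 3319.9 with DMSO and 4823, 4725 and 4952 with squamocin in SCC15. The groups were well separated, with a log2 change of 0.51 (SE 0.078, limma adjusted p = 0.00112). With equal totals this was 0.013 (adjusted p = 0.901) and the call was lost, while TMM factors gave 0.47 (limma adjusted p = 0.00216). In SCC25 the libraries overlapped, at 1593, 1642.49 and 1599 with DMSO and 1771, 1646 and 1641.98 with squamocin. The change there was 0.065 (95% interval -0.041 to 0.17, limma adjusted p = 0.240), and it turned to -0.14 (adjusted p = 0.0157) with equal totals. In GENCODE 44, 6.04% of the exonic bases of YME1L1 lie in exons of MASTL, although none of those of its canonical transcript do.

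**Figure D3:**
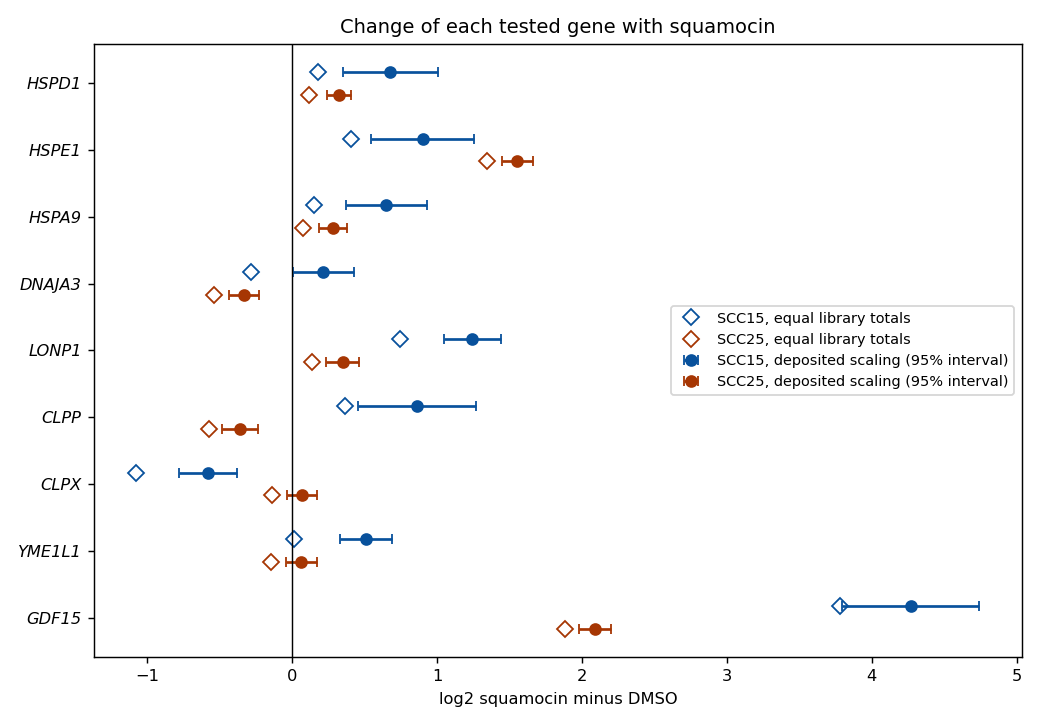
Log2 change with squamocin of the 9 tested genes in SCC15 (blue) and SCC25 (brown), as filled points with 95% intervals from limma under the deposited scaling, with the change under equal library totals as open diamonds. Equal totals moved each SCC15 point further to the left than the SCC25 point, and DNAJA3 in SCC15 and CLPX and YME1L1 in SCC25 crossed 0.

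GDF15 (chromosome 19, 18374731 to 18389176, plus strand), a hormone of the TGF-beta superfamily that is induced by cell stress, had the largest change of the 9 tested genes in both cell lines. In SCC15 it stood at 29.0, 31.6 and 36.7 with DMSO and 565, 543 and 862 with squamocin. The rise was 19.3-fold, a log2 change of 4.27 (95% interval 3.80 to 4.74, SE 0.20, limma adjusted p = 1.21e-05). In SCC25 it rose from 3315, 3307 and 3378 to 14239, 13182 and 15321, which was 4.27-fold, a log2 change of 2.09 (SE 0.050, limma adjusted p = 2.80e-12). Among all genes tested, these changes ranked at percentile 99.8 in SCC15 and 96.8 in SCC25. The difference of -2.18 between the cell lines (95% interval -2.63 to -1.73, limma adjusted p = 3.25e-06) passed the threshold. Equal totals gave changes of 3.78 and 1.88.

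The cell lines started from very different levels of GDF15. As RPM, reads scaled to the library total on genes, a scale that does not use the size factors, GDF15 was at 1.87 to 2.37 in SCC15 and at 181 to 185 in SCC25 with DMSO, and at 26.1 to 35.0 and 620 to 732 with squamocin. Every treated SCC15 library therefore stayed below every untreated SCC25 library. Per kilobase of canonical transcript, GDF15 was the ninth of the 10 genes in SCC15 with DMSO, at 27.0 normalized counts, and the eighth with squamocin, at 547. In SCC25 it was the second with DMSO, at 2778, behind HSPD1 at 3861, and the first with squamocin, at 11873, ahead of HSPD1 at 4834. HSPD1 was the first in SCC15 in both groups, at 2588 and 4192, and HSPA9 the second, at 1397 and 2207.

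FGF21 (chromosome 19, 48755559 to 48758333, plus strand), a fasting hormone made mainly by the liver, was close to absent and was not tested. In SCC15 it had 1, 0 and 0 reads with DMSO and 2, 0 and 4 with squamocin, so that the groups overlapped. SCC25 gave 0, 1 and 1 reads with DMSO and 13, 15 and 7 with squamocin, without overlap. Scaled by the authors' size factors, 35 against 2 reads in SCC25 is a ratio of 23.0 (95% exact interval 5.91 to 197). For SCC15, 6 against 1 reads is a ratio of 8.45 (1.03 to 389), whose lower bound is close to 1. These ratios were not computed with equal totals. Without molecular identifiers in the reads, these intervals reflect counting error alone. When all genes above 0 were tested, the log2 change of FGF21 was 3.16 in SCC25 (limma adjusted p = 2.88e-04) and 1.14 in SCC15 (limma adjusted p = 0.224), and a difference between the cell lines was not detected (adjusted p = 0.0967).

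The promoter window of FGF21 holds a C/EBP-ATF composite element, the type of site bound by ATF4 with a C/EBP partner, 54 to 47 bases before the RefSeq start. The 133 bases that lie in no annotated exon are shown on the plus strand, chr19:48755391-48755523, with the element in capitals.
FGF21: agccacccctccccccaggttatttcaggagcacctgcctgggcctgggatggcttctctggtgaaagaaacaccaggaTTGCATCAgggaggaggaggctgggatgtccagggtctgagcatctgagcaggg

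The sequences come from the RefSeq promoter windows of GRCh38.p14, which run from 250 bases before to 50 bases after a start. The stretches shown lie wholly in annotated exons, except the downstream one of LONP1 and that of FGF21, which lie in none. 8 of the 10 genes had such a window, 10 windows in all, and CLPP and YME1L1 had none. The motifs were searched on both strands, and they were picked with the expression results known. TGATGNAA, the C/EBP-ATF element, was in 3.62% of all 35116 windows and in 1 window of the 10 genes. The heat shock element, written as GAA, TTC and GAA with 2 bases between neighbours, was in 0.49% of all windows and in 1 of these. CACGTG, the E-box, was in 7.26% of all windows and in 4 of the 10 windows, of which those of HSPD1 and HSPE1 share 1 position. A match describes letters and not binding, and the window of GDF15 held none of the 3 motifs.

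The response differed between SCC15 and SCC25 for 8 of the 9 genes (limma, contrast of the responses), where 52.2% of all genes compared differed. HSPE1 and CLPX had the higher change in SCC25, by 0.65 each. HSPA9, DNAJA3, LONP1, CLPP, YME1L1 and GDF15 had the higher change in SCC15, with SCC25 minus SCC15 between -0.37 for HSPA9 and -2.18 for GDF15. HSPD1 did not pass, at -0.36 (95% interval -0.69 to -0.024, limma adjusted p = 0.0676). It passed in DESeq2 (adjusted p = 0.0275). In simulated data, 14.0% of such DESeq2 calls were false, against 1.86% in limma. There, 175 of 14454 genes differed by 2-fold and 178 by 1.5-fold, far fewer than the 52.2% called here. These shares of false calls therefore do not carry over to the calls reported here. HSPD1 also passed when any 1 of the 3 squamocin libraries of SCC15 was left out. Without the third, the difference was -0.20 (limma adjusted p = 0.00622). HSPA9 was close to the threshold as well (limma adjusted p = 0.0303), and its call was lost when any of 7 libraries was left out, the highest adjusted p being 0.0707. With equal totals 5 genes still differed, and those of HSPA9 (adjusted p = 0.502), DNAJA3 (adjusted p = 0.147) and YME1L1 (adjusted p = 0.188) were lost.

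Across the 12 libraries, centred within each cell line, HSPD1 and HSPA9 had a Pearson correlation of 0.994, while HSPD1 and HSPE1 had 0.814. CLPX ran opposite to YME1L1 at -0.920 and to CLPP at -0.828. The log2 changes of CLPX and YME1L1 were -0.58 and 0.51 in SCC15, but 0.069 and 0.065 in SCC25, where neither was called. Over 9697 protein-coding genes with a mean of at least 100 in each table, the genes most like HSPD1 were HSPA9 (0.994), RPL34 (0.994) and RPL19 (0.993). Those most like LONP1 were SARS (0.997), DDIT4 (0.997) and PNPLA2 (0.995), and those most like GDF15 were GARS (0.998), DUS1L (0.998) and GRB7 (0.997). The libraries share their treatment and scaling in each of these correlations, which are given as descriptions.

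Other genes of mitochondrial proteostasis were described by 5 lists, whose counts are to be read against all genes tested, of which 30.9% were higher and 30% lower in SCC15 and 38.3% and 38.5% in SCC25. Of the other mitochondrial chaperones, 3 of 8 tested were higher and 0 lower in SCC15, while SCC25 had 5 of 9 higher and 2 lower, with a median log2 change of 0.42 in both. PPIF (cyclophilin D), a regulator of the permeability transition pore, rose in both cell lines, from a mean of 704 ± 62.1 to 2807 ± 174 in SCC15 and from 1926 ± 46.0 to 5408 ± 317 in SCC25 (SD, n = 3). Its log2 changes were 2.00 (limma adjusted p = 1.25e-05) and 1.49 (limma adjusted p = 4.21e-11). TRAP1, the mitochondrial HSP90, moved in opposite directions, at 0.60 in SCC15 (limma adjusted p = 7.67e-04) and -1.01 in SCC25 (limma adjusted p = 9.14e-09), but its SCC15 call was lost with equal totals, at 0.10 (adjusted p = 0.460).

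Of the other mitochondrial proteases and their scaffolds, 7 of 17 were higher and 5 lower in SCC15, while SCC25 had 5 higher and 10 lower, with medians of 0.37 and -0.17. LACTB, a filament-forming protease of the intermembrane space, rose by 1.22 (limma adjusted p = 1.13e-04) and 1.61 (limma adjusted p = 9.39e-10) on the log2 scale, where the SCC15 change was 0.72 with equal totals. HTRA2, a protease that promotes apoptosis once released, fell in both, at -0.75 in SCC15 (limma adjusted p = 0.0333) and -1.48 in SCC25 (limma adjusted p = 4.10e-07). The SCC15 call of HTRA2 was lost in 5 of the 6 fits that left out 1 library, and was kept without the third squamocin library, at -1.03 (limma adjusted p = 2.94e-07), and with equal totals, at -1.25 (adjusted p = 0.00145). PHB2, a scaffold of the inner membrane proteases, was higher in SCC15 by 0.66 (limma adjusted p = 0.00417) and lower in SCC25, at -0.44 (limma adjusted p = 5.35e-07). With equal totals PHB2 was not called in SCC15, at 0.17 (adjusted p = 0.128).

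Of the genes of mitochondrial protein import, 11 of 22 were higher and 1 lower in SCC15, while SCC25 had 9 higher and 3 lower, with medians of 0.44 and 0.12. TIMM17A, a subunit of the inner membrane translocase, had the largest rise by the mean of both cell lines among the genes called higher in both, at 0.97 in SCC15 (limma adjusted p = 0.00353) and 1.40 in SCC25 (limma adjusted p = 2.40e-10). In SCC15 its change was 0.48 with equal totals.

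The stress relay list held the genes that carry a mitochondrial signal from the protease OMA1 through DELE1 and the kinase EIF2AK1 (HRI) to ATF4, together with its transcription factors and HSF1. 6 of 9 were higher and 2 lower in SCC15, while SCC25 had 6 and 3. DDIT3 (CHOP), a target and partner of ATF4, rose from a mean of 176 to 3613 in SCC15, a log2 change of 4.30 (limma adjusted p = 1.62e-05), and from 605 to 3747 in SCC25, a change of 2.63 (limma adjusted p = 1.66e-13). ATF4 changed by 2.25 (limma adjusted p = 3.21e-05) and 0.91 (limma adjusted p = 5.39e-10). OMA1, at the head of the relay, fell in both cell lines, at -0.98 in SCC15 (limma adjusted p = 5.70e-04) and -0.84 in SCC25 (limma adjusted p = 1.27e-04). DELE1 was higher in SCC15, at 0.93, and lower in SCC25, at -0.62, while ATF5 went the other way, at -0.71 and 0.66. The calls of OMA1, ATF4, DELE1 and ATF5 held with equal totals, where the SCC15 changes of OMA1, DELE1 and ATF5 were -1.47, 0.43 and -1.21.

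Of the mitokine receptors, 3 were tested in SCC15, where 0 were higher and 1 was lower, and 5 in SCC25, where 1 was higher and 3 were lower. GFRAL, the receptor of GDF15, was listed in neither table, and KLB, the co-receptor that FGF21 requires, had a mean of 1.43 in SCC15 and 5.0 in SCC25 and was not tested. FGFR3 fell in both cell lines, with log2 changes of -1.43 in SCC15 (limma adjusted p = 0.00205) and -1.90 in SCC25 (limma adjusted p = 1.07e-10). FGFR2 and FGFR4 were called lower in SCC25, at -1.01 (limma adjusted p = 4.78e-06) and -0.63 (limma adjusted p = 6.54e-05). FGFR1 rose in SCC25 by 2.07 (limma adjusted p = 3.46e-06) from a low level, with a mean of 51.2 over the 6 libraries, and in SCC15, where its mean was 1998, the change was 0.18 (limma adjusted p = 0.239) and turned to -0.32 (adjusted p = 0.137) with equal totals.

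**Figure D4:**
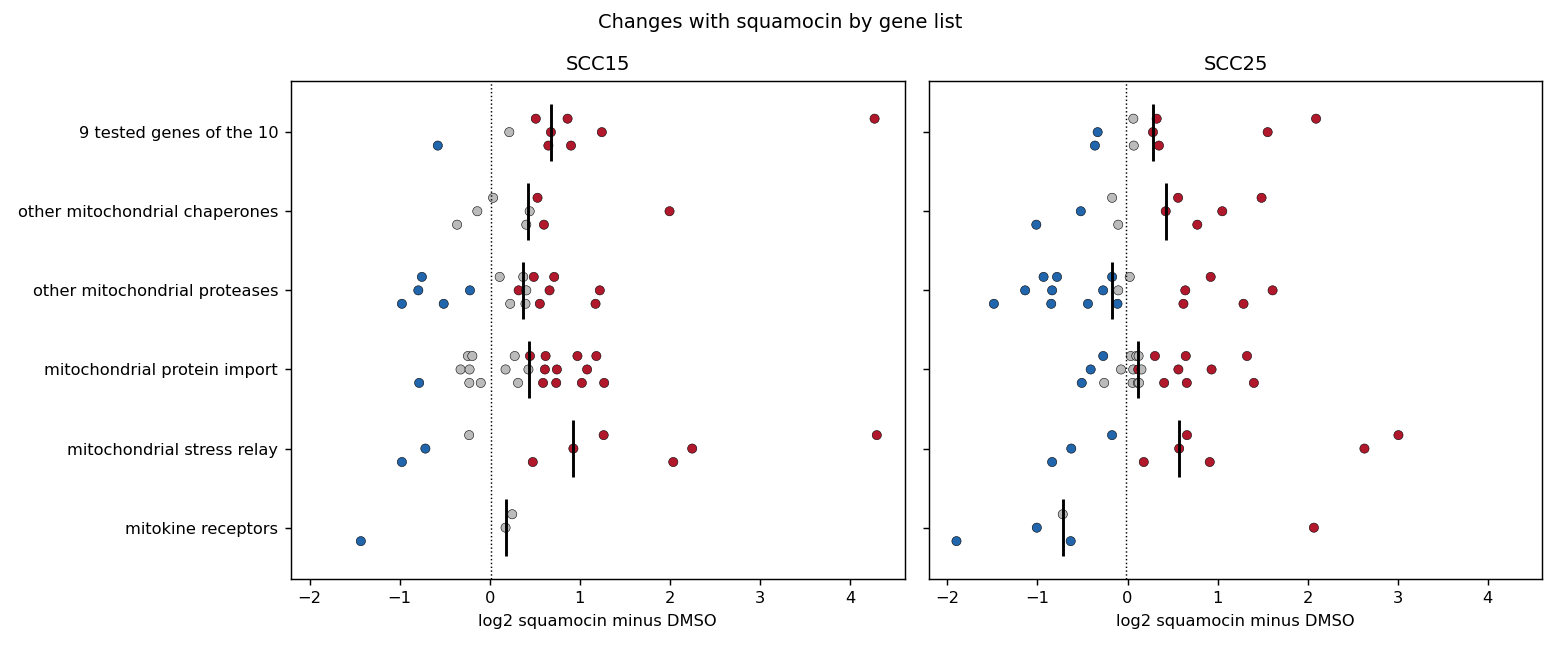
Log2 change with squamocin of the 9 tested genes and of the genes of the 5 lists in SCC15 (left) and SCC25 (right), in red where higher, in blue where lower and in grey where limma made no call. Black bars mark the median of each list and the dotted line that of all genes tested, 0.012 in SCC15 and -0.015 in SCC25. The proteases spread to both sides of 0, and their median was 0.37 in SCC15 and -0.17 in SCC25.

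Over the 5 lists together, 27 of the 58 genes tested in SCC15 were higher and 8 lower, with a median of 0.41, and 26 of the 61 tested in SCC25 were higher and 20 lower, with a median of 0.097. Of all genes, 30.9% were higher and 30% lower in SCC15 and 38.3% and 38.5% in SCC25, and the SCC25 counts of the lists lie near those shares. With equal totals the SCC15 counts became 14 higher and 18 lower, where 2357 of all 15902 genes were higher and 8033 lower. The number of list genes called lower in SCC15 was 16 without the third squamocin library and 5 without the second DMSO library. In these 2 fits, 5920 and 3700 of all genes were lower.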

How the data were processed

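RNA-seq of SCC15 and SCC25 cells with squamocin or DMSO was re-analysed (12 libraries, 3 per group, 16665563 to 22748845 reads on genes each). The authors aligned reads to GRCh38 with HISAT2 2.0.5 and counted them with featureCounts 1.5.0-p3, per the submitters' processing notes, and the strand setting is not given in the sources used here. The deposited signal is the read count divided by a library size factor that was set separately in SCC15 and SCC25, also where the column names say FPKM. Whole reads were recovered for 100% of the values (within 0.01 reads). The deposited group means, fold changes and p-values of the authors were not used.

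Genes with a mean of at least 10 normalized counts were tested in R 4.3.3 by limma 3.58.1 (eBayes with a mean-variance trend, log2 with a pseudocount of 1, two-sided, Benjamini-Hochberg adjustment over all genes tested). A fold change on this scale understates the change of low genes. The difference between the cell lines was a contrast over 12 libraries. Ratios were tested by exact permutation over libraries. Alternatives were pseudocounts of 0.1 and 10, no filter, equal library totals, TMM, DESeq2 1.42.0 and edgeR 4.0.16 on recovered reads, a replicate block and leaving out each library. The scripts were tested on simulated data, where limma recovered 15% of 1.5-fold changes in SCC15 and 72% in SCC25. In each simulation 100 genes changed by 2-fold and 100 by 1.5-fold, of 15902 in SCC15 and 16539 in SCC25. Far more genes were called in the data themselves, so these shares do not give the power of the tests reported here.

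The 10 genes and the lists were chosen with earlier results of these data known. Named besides them were HSPA5, the largest rise and fall in each list among genes called in the same direction in both cell lines, and the 3 genes most correlated with HSPD1, LONP1 and GDF15. TRAP1, PHB2, ATF4, DELE1, ATF5, KLB, GFRAL, FGFR1, FGFR2 and FGFR4 were named after their values were seen. Gene coordinates are those of the deposited tables, and transcript lengths and overlaps are from GENCODE 44.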

Additional observations from a re-analysis of the deposited data

Results flagged for a closer look

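The response to squamocin differed between the cell lines, by the limma contrast of the log2 changes (SCC25 minus SCC15), for 8 of the 9 tested genes. The difference was 0.65 for HSPE1 (adjusted p = 0.00494), -0.37 for HSPA9 (adjusted p = 0.0303) and -0.55 for DNAJA3 (adjusted p = 4.79e-04). It was -0.89 for LONP1 (adjusted p = 1.11e-05), -1.23 for CLPP (adjusted p = 1.78e-04), 0.65 for CLPX (adjusted p = 8.40e-05) and -0.45 for YME1L1 (adjusted p = 6.77e-04). The largest of these was -2.18 for GDF15 (adjusted p = 3.25e-06). All of these differences rest on 3 libraries per group, and 52.2% of the genes compared passed the same test. With equal library totals the differences of HSPA9, DNAJA3 and YME1L1 did not pass.

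The log2 ratio of CLPX to CLPP fell with squamocin in every SCC15 library and rose in every SCC25 library relative to the DMSO libraries, so that the change in SCC25 minus that in SCC15 was 1.87. This difference of the ratio was not tested.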

How the results depend on the processing

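With equal library totals, 4 of the 9 tested genes were higher in SCC15 and 4 were lower in SCC25, and 5 differed between the cell lines. The lists held 14 higher and 18 lower genes in SCC15. Directions turned with equal totals for DNAJA3 in SCC15 (-0.28), CLPX in SCC25 (-0.14) and YME1L1 in SCC25 (-0.14). All genes called in SCC15 numbered 2357 higher and 8033 lower in place of 4921 and 4773. In SCC25 they numbered 5032 and 7839 in place of 6335 and 6367. These shifts go with the median of all genes, which equal totals moved to -0.48 in SCC15 and -0.22 in SCC25. No direction of a tested gene of the 10 turned under the pseudocounts, no filter, TMM, edgeR, DESeq2, the replicate block or with any library left out.

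Leaving out 1 library gave 5 to 16 list genes lower in SCC15. Of the 9 tested genes, 7 to 8 were then higher in SCC15 and 7 to 9 differed between the cell lines. Over the same SCC15 fits, all genes called numbered 3902 to 6103 higher and 3693 to 5920 lower. The replicate numbers did not pair the libraries, with correlations of their deviations between -0.0511 and 0.00780, and no library correlated best with its own number. With the replicate number as a block, 7 genes were higher and 1 lower in SCC15, where 4665 of all genes were higher and 4451 lower. In SCC25, 5 were higher and 2 lower, against 6294 and 6317 of all genes. In the block fit 7 genes differed between the cell lines, and the call of HSPA9 was lost (limma adjusted p = 0.0505). No all-gene count is given here beside that number. Depth limits FGF21, which had at most 15 reads in a library.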
